A study of Caenorhabditis elegans with 18 samples.

Results

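The region was the stretch of the left arm of chromosome II between 1 and 2 Mb of the Caenorhabditis elegans genome, in coordinates of build ce10. Its small RNA reads were summed in windows of 1 kb, and a window was kept where the 18 libraries together held at least 30 reads. This kept 748 of the 1000 windows of the region, out of 14514 windows of 1 kb with at least 30 reads in the whole table. The 252 windows left out held 1 to 29 reads each, and the 748 kept held 99.8% of the region's reads. Totals over all libraries ran from 30 to 398286 reads a window, with a median of 228. At the threshold itself, 6 windows stood at exactly 30 reads and 9 just outside it at 29.

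Small RNA had been sequenced from early embryos, before the bean stage, of 6 strains with 3 libraries each. The embryos came from worms grown for 60 to 65 h after synchronisation as first-stage larvae, the time depending on the strain. The wild type was N2 (Bristol). The single mutants were met-2(n4256) III, set-25(n5021) III and nrde-3(tm1116) X. The double mutants, met-2;nrde-3 and set-25;nrde-3, carried the same alleles as the single mutants. All libraries came from whole embryos, so fewer cells of a type and less small RNA per cell cannot be told apart. The growth description speaks of 2 independent biological replicates but each strain has 3 numbered libraries, so the spread behind the p-values is that of libraries and may in part be technical. The 3 mutated genes lie on chromosomes III and X, which are not used here, so the genotypes were not checked against the reads.

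MET-2 is the methyltransferase that adds the first methyl groups to lysine 9 of histone H3, and SET-25 adds the last one. NRDE-3 is an Argonaute protein of somatic cells that binds secondary small interfering RNAs, carries them into the nucleus and directs silencing of the matching genes there. In worms the arms of the autosomes carry more repeats and more of this histone mark than the centres. The table holds both strands and all read lengths together, so the classes of small RNA in a window cannot be told apart. Gene names and sequences of the windows are not given, because the annotation at hand is of another build.

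Libraries held 1680028 to 4384593 reads in the whole table. Levels are CPM, reads of a window scaled to a common library total, with TMM factors. TMM sets the bulk of windows equal between libraries. Replicates 1 and 2 of the met-2;nrde-3 strain stood apart in coverage: 7.21% and 8.91% of the region's 20-bp bins held a read there, against 10.7% to 20.6% in the 16 other libraries. Counts of called windows of that strain are therefore also given without them, while levels and changes of single windows are mostly given with them. The region held 4.84% ± 0.320 of the reads of N2 (SD, n = 3), 3.22% ± 0.669 in nrde-3, 2.62% ± 0.263 in set-25 and 1.43% ± 0.117 in met-2. The double mutants had shares of 4.24% ± 0.612 with met-2 and 2.13% ± 0.336 with set-25. The last 13 kb of chromosome I took 21.0% to 68.8% of a library, and with them left out the shares became 6.63%, 5.78%, 6.15%, 2.78%, 6.39% and 5.52% in that order of strains. Only met-2 then lay below 5%, and the order of the other strains by share was not the same with and without that end.

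Signal in the region was concentrated in few windows. In N2 the 10 most abundant windows held 60.0% of the CPM of the 748, and 5 windows held 50% of it. To reach 50% took 6 windows for met-2;nrde-3, 7 for set-25, 14 each for nrde-3 and set-25;nrde-3, and 16 for met-2. The median window stood at 3.92 CPM in N2 and at 1.93 CPM in met-2, with the 4 other strains between 3.49 and 4.23 CPM. Of the 10 blocks of 100 kb, the one from 1.8 Mb held 41.4% of the N2 signal, the one from 1.4 Mb 20.4% and the one from 1.9 Mb 12.6%.

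Summed over the 748 windows, the level was 37208 ± 337 CPM in N2 and 15635 ± 300 CPM in met-2. It was 29928 ± 1736 CPM in nrde-3 and 29983 ± 1641 CPM in set-25. The double mutants stood at 34190 ± 1874 CPM for met-2;nrde-3 and 28123 ± 815 CPM for set-25;nrde-3. The difference of nrde-3 and set-25;nrde-3 from N2 lay in 1 window. Without it the sums were 25581 ± 632 CPM in N2, 26458 ± 572 for nrde-3 and 25540 ± 718 for set-25;nrde-3, and the libraries of these 3 strains overlapped. The remaining sums were 23294 ± 940 CPM in set-25, 24628 ± 324 in met-2;nrde-3 and 12934 ± 116 in met-2, whose libraries stayed below all others.

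**Figure D1:**
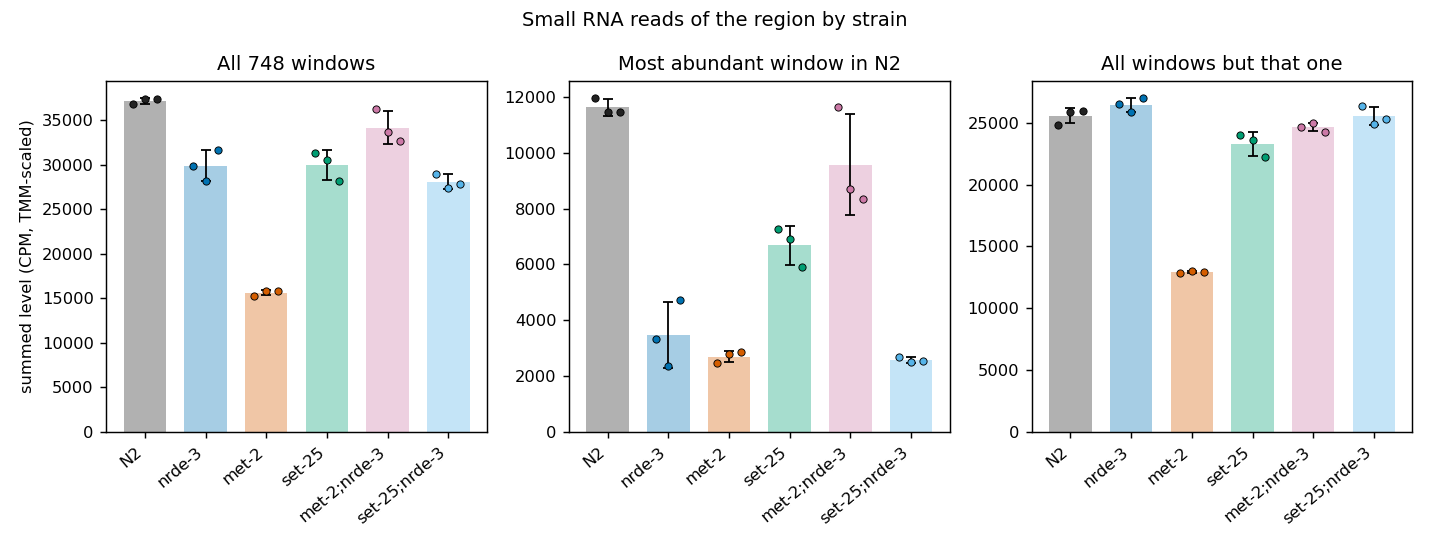
Summed level (CPM, TMM-scaled) by strain for all 748 windows, for the window most abundant in N2 and for the other windows together; bars are means, error bars SD and points the 3 libraries. In the right panel the met-2 bar, at 12934 CPM, lies below all other strains, which stand between 23294 and 26458 CPM.

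The window that led in N2 lies on chromosome II from 1820017 to 1821016 and is called the 1820-kb window here. Its 3 N2 libraries held 11968, 11467 and 11446 CPM, or 31.3% ± 1.08 of the region's level. The nrde-3 libraries held 3328, 2373 and 4709 CPM, and the met-2 libraries 2474, 2776 and 2853 CPM. Neither strain overlapped with N2. The set-25 libraries, at 7266, 6892 and 5908 CPM, lay between them and N2. The met-2;nrde-3 libraries stood at 11639, 8701 and 8347 CPM, with replicate 1 inside the range of N2. The set-25;nrde-3 libraries stood at 2690, 2503 and 2554 CPM and overlapped with nrde-3.

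Against N2 the 1820-kb window fell by 1.74 ± 0.16 on the log2 scale in nrde-3 (SE; adjusted p = 1.37e-08, edgeR quasi-likelihood test with Benjamini-Hochberg adjustment over all windows, as in all tests here). It fell by 2.11 ± 0.16 in met-2 (edgeR adjusted p = 1.41e-11), by 0.80 ± 0.16 in set-25 (0.00153) and by 2.17 ± 0.16 in set-25;nrde-3 (1.05e-10). In met-2;nrde-3 the difference of -0.28 ± 0.16 did not pass (0.367). The met-2 and nrde-3 effects did not add up: the interaction (log2 change of the double mutant against N2, less those of the single mutants) was 3.57 ± 0.23 (4.94e-13). For set-25 and nrde-3 the interaction of 0.37 ± 0.22 did not pass (0.631).

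Reads of the 1820-kb window fell within a stretch of it. In N2, 20 of its 50 bins of 20 bp held at least 50 CPM, and these spanned 280 to 880 bp from the start of the window. Over these 20 bins the median log2 ratio to N2 was -1.92 in nrde-3, with a range of -3.35 to -0.77. It was -1.99 in met-2 with a range of -3.23 to -1.80, and -2.22 in set-25;nrde-3 with a range of -3.83 to -1.21. In set-25 it was -0.91 with a range of -1.27 to -0.26. All 20 bins were thus lower in each of these strains. In met-2;nrde-3 the median was -0.25, with a range of -0.78 to 0.11. The most abundant bin was number 24 in N2, nrde-3 and met-2, number 25 in both double mutants and number 34 in set-25, and held 17.7% to 21.8% of the window.

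**Figure D2:**
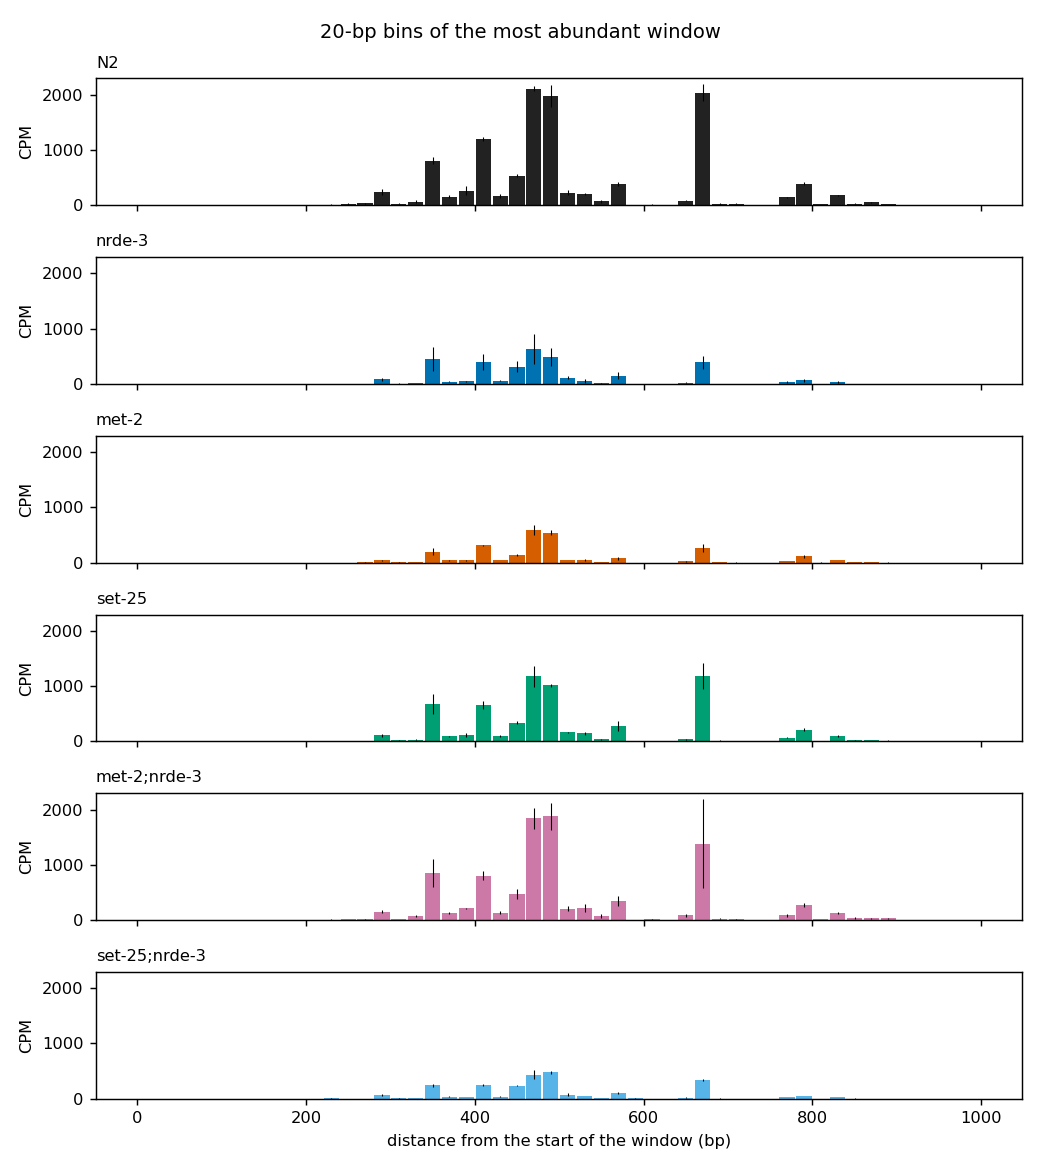
Level of each 20-bp bin (CPM, bars are means of 3 libraries, error bars SD) against its distance from the start of the 1820-kb window, one panel per strain. The 20 bins with at least 50 CPM in N2 lie at 280 to 880 bp in the upper panel, and in the nrde-3, met-2 and set-25;nrde-3 panels all of them are lower.

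The neighbouring window at 1821 kb held less signal and had the pattern most like it. It stood at 31.5 ± 4.59 CPM in N2, while met-2 held 4.10 ± 0.80, nrde-3 4.80 ± 1.48 and set-25;nrde-3 5.50 ± 2.12 CPM. The level was 19.4 ± 5.38 CPM in set-25 and 24.6 ± 3.38 in met-2;nrde-3. Its fall of 2.69 ± 0.28 on the log2 scale in nrde-3 was the largest named in that strain (edgeR adjusted p = 1.23e-07). Pearson's r of log2(CPM + 0.5) with the 1820-kb window over the 6 strain means was 0.976 for this window, 0.957 for the 1061-kb window and 0.915 for the 1323-kb window. The last of these varied little, from 11.1 to 17.04 CPM.

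Of the 748 windows, 545 passed the filter on low counts that was applied to the whole table and entered the test, among 10730 windows of the table in all. They held 99.4% of the members' reads. The 203 that were not tested had 113 reads or fewer each.

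In met-2 small RNA fell over much of the region. Of the 545 windows, 267 were lower and 47 higher than in N2 (edgeR adjusted p under 0.05), which is 49.0% and 8.62%. Over all 10730 windows of the table, 23.0% were lower and 15.3% higher, 38.3% in all. Scaling by library totals alone moved the median of all windows to -0.48, and then 320 members were lower and 19 higher. The median log2 change was -1.03 in the region and 0.02 over all windows. Among the falls 245 were at least 2-fold, or 45.0% of the windows tested, against 19.0% over the table. Among the rises 26 were, or 4.77%, against 6.99%. The median change of this Mb was the lowest and its share of called windows, 57.6%, the highest of the Mb segments of the table, which is a description without a test. Its neighbours had medians of -0.34 from 0 to 1 Mb and -0.41 from 2 to 3 Mb.

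The falls in met-2 were not spread evenly. By blocks of 100 kb the median log2 change was -1.99 from 1.0 Mb, -1.81 from 1.5 Mb and -2.29 from 1.6 Mb, with 43, 37 and 39 windows lower. In these blocks 63, 49 and 50 windows were tested. From 1.7 and 1.8 Mb it was -1.16 and -1.26. From 1.1 to 1.5 Mb the medians lay between -0.43 and -0.18. In the last block it was -0.13, with 24 windows higher and 23 lower of 84 tested. Lower windows lay beside each other: 36 runs of 3 or more held 166 of the 267, so the windows do not stand for as many separate loci. The longest run had 17 windows, from 1446017 to 1463016, with log2 changes of -3.24 to -1.85 and a median of -2.73.

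**Figure D3:**
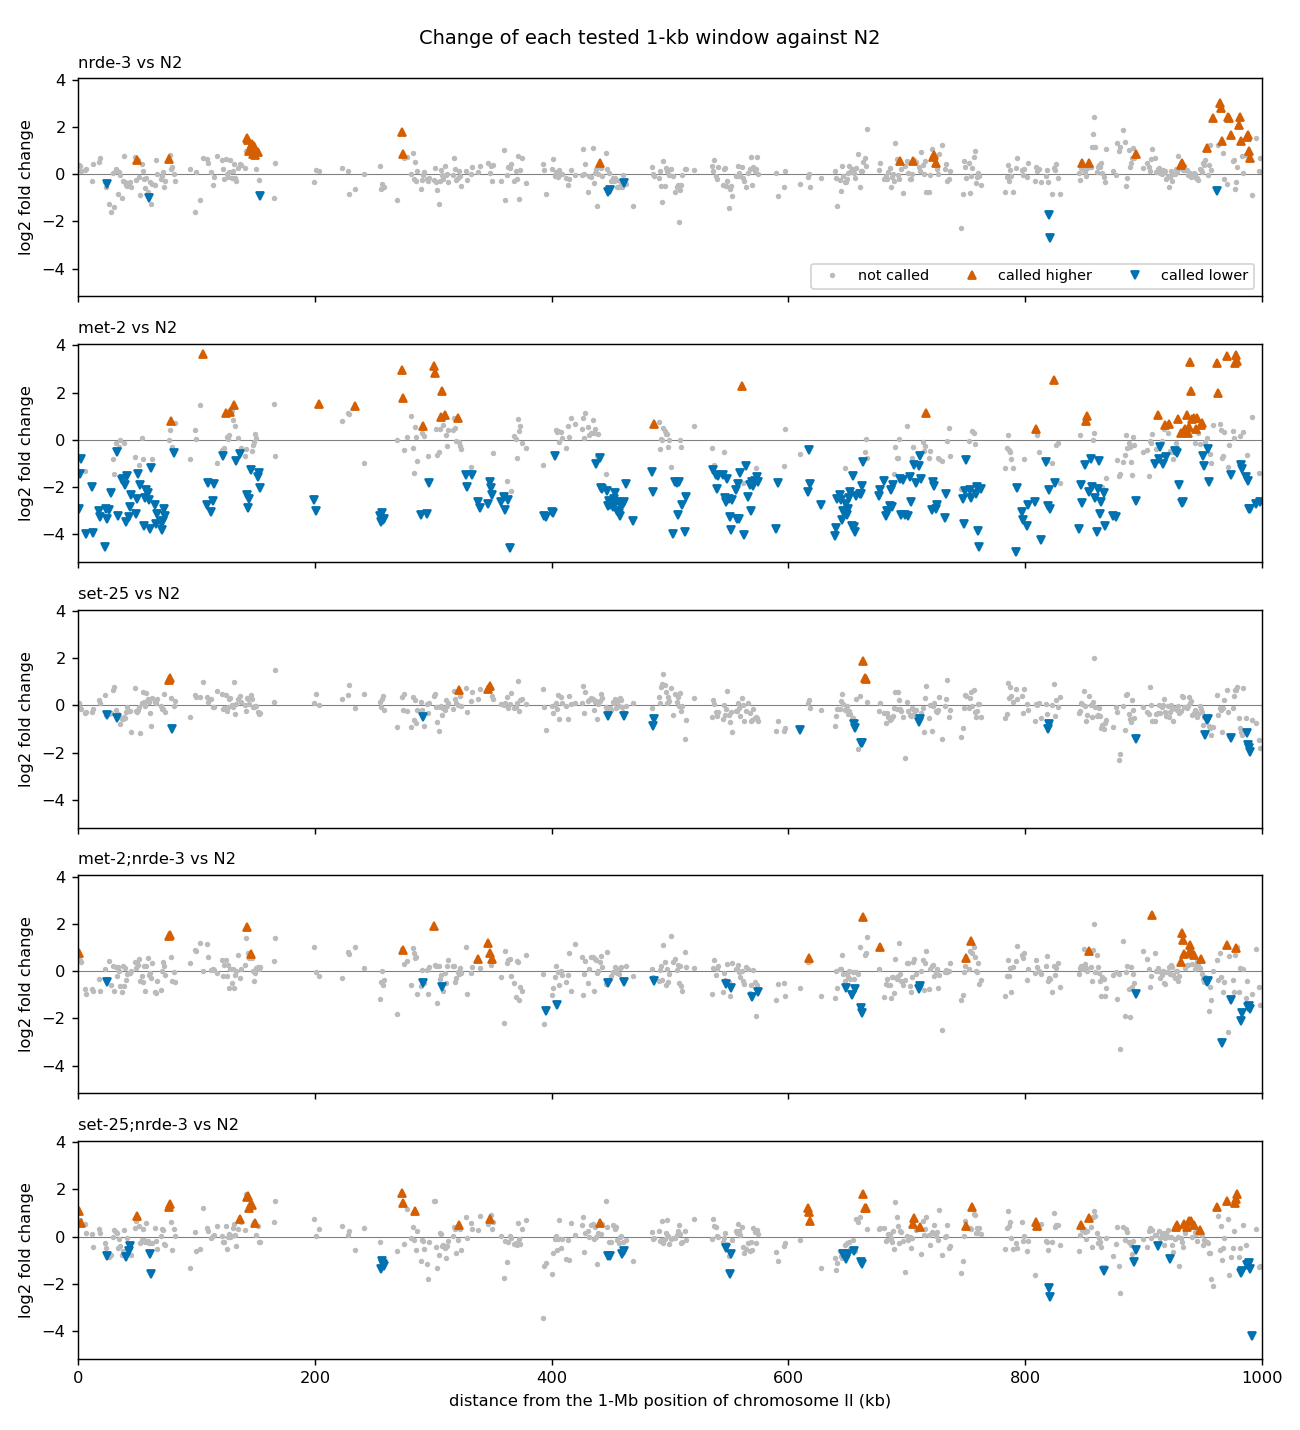
Log2 fold change against N2 (vertical axis) of the 545 tested windows by distance from the 1-Mb position of chromosome II in kb, one panel per mutant strain; triangles are windows called higher or lower at an adjusted p under 0.05. The met-2 panel holds 267 downward and 47 upward triangles, and the last 100 kb, with 84 windows tested, hold 24 of the latter.

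That run includes 5 of the 10 windows most abundant in N2, at 1448, 1449, 1459, 1460 and 1461 kb. The 1460-kb window held 2074, 2238 and 2236 CPM in N2 and 317, 348 and 320 CPM in met-2. It fell by 2.73 ± 0.17 on the log2 scale (edgeR adjusted p = 8.89e-14). The nrde-3 libraries, with 2066, 1645 and 2615 CPM, overlapped with N2 (-0.05 ± 0.16, edgeR adjusted p = 0.959), and so did set-25;nrde-3 with 2484, 1444 and 1646 CPM. The set-25 libraries at 2027, 1836 and 1548 CPM and the met-2;nrde-3 libraries at 1874, 1589 and 1590 CPM lay below the N2 libraries without passing the test.

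Of the 10 most abundant windows 9 fell in met-2. The 1847-kb window, the next after the 1820-kb window, held 2502, 2675 and 2745 CPM in N2 and 694, 674 and 710 CPM in met-2. It was the most abundant window of set-25;nrde-3, with 3657, 3716 and 3634 CPM, and was 0.47 ± 0.09 higher than N2 there (edgeR adjusted p = 0.000698). The 1043-kb window held 752, 699 and 738 CPM in N2 against 113, 106 and 89.8 CPM in met-2, a fall of 2.83 ± 0.11 (edgeR adjusted p = 3.59e-18). The exception was the 1947-kb window, which stood at 425 ± 12.2 CPM in N2 and 378 ± 22.5 CPM in met-2 (edgeR adjusted p = 0.157).

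**Figure D4:**
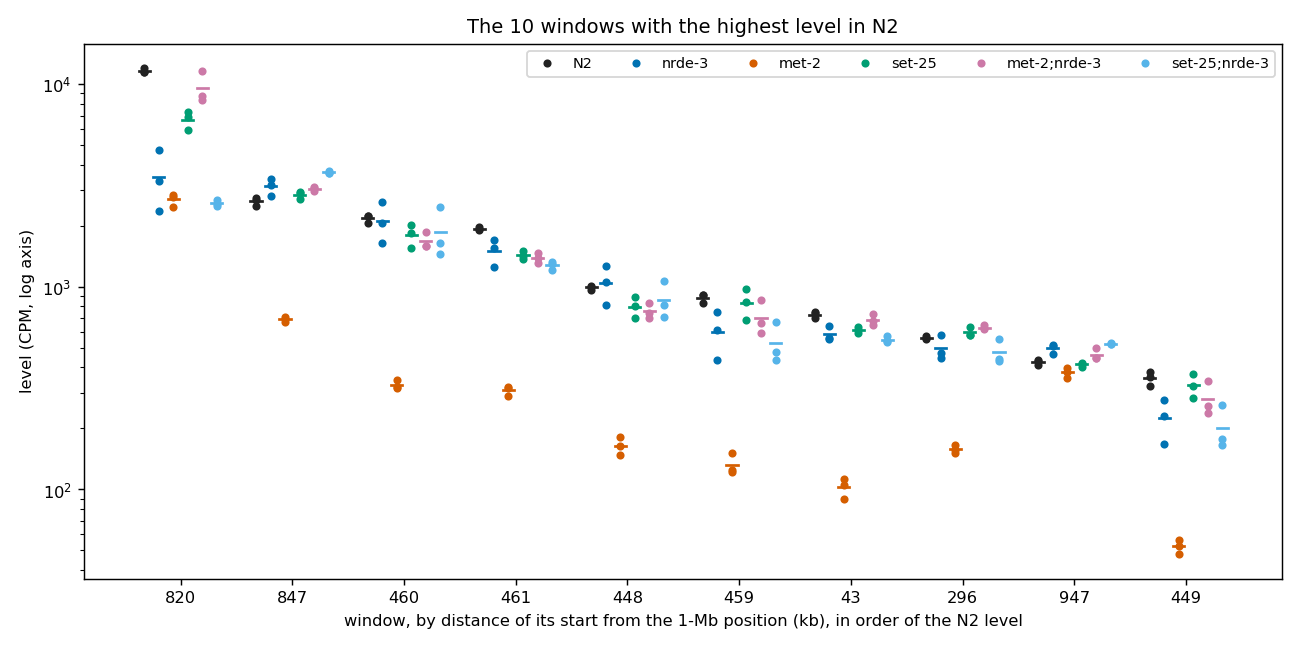
Level (CPM, log axis) of the 10 windows with the highest mean in N2, ordered by it; points are libraries, short lines means, and the horizontal axis names each window by its distance from the 1-Mb position in kb. In 9 of the 10 the met-2 points lie below those of N2, with the window at 947 kb as the exception.

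The largest falls in met-2, among windows with over 8.56 CPM in either strain (the median level of all windows tested), were not in the most abundant ones. The 1792-kb window went from 11.5, 13.5 and 14.9 CPM in N2 to 0.771, 0.283 and 0.295 CPM, a log2 change of -4.75 ± 0.44 (edgeR adjusted p = 4.86e-10). It did not pass the test against N2 in the 4 other strains. The size of its fall in met-2 rests on few reads there. The 1070-kb window went from 45.3, 42.5 and 44.4 CPM to 1.80, 5.37 and 2.07 CPM, a log2 change of -3.83 ± 0.26. In the other mutants, with means of 39.95 to 54.8 CPM, it did not pass the test. Windows at 1364, 1860, 1656 and 1760 kb fell by 4.597, 3.90, 3.88 and 3.87 on the log2 scale. In met-2 each of these held under 30 reads over the libraries together.

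Of the 47 rises in met-2, 24 lay in the last 100 kb, which held 84 of the 545 windows tested. The 1978-kb window, from 1978017 to 1979016, went from 8.96, 17.95 and 16.96 CPM in N2 to 157, 206 and 174 CPM, a log2 change of 3.58 ± 0.20 (edgeR adjusted p = 1.03e-14). The 1962-kb window went from 14.8, 19.2 and 14.9 CPM to 145, 183 and 146 CPM (3.26 ± 0.16). The 1939-kb window went from 7.42, 8.98 and 9.49 CPM to 96.3, 78.0 and 81.5 CPM (3.29 ± 0.18). In all of them the 3 met-2 libraries stood far above those of the 5 other strains. The last belongs to the longest run of rises, 9 windows from 1934017 to 1943016 with log2 changes of 0.31 to 3.29. Away from the right end, the 1307-kb window went from 39.9, 41.8 and 44.2 CPM to 153, 190 and 179 CPM (2.05 ± 0.14, edgeR adjusted p = 1.82e-12).

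In set-25;nrde-3 the 1978-kb window stood at 41.6, 48.6 and 44.1 CPM and the 1962-kb window at 37.1, 42.1 and 38.4 CPM, above N2 in every library. They rose by 1.59 ± 0.21 (edgeR adjusted p = 2.59e-06) and 1.26 ± 0.17 (3.46e-06). In set-25 alone, at 23.1 ± 2.52 and 22.5 ± 3.53 CPM, neither passed the test.

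Loss of nrde-3 was followed by rises in more windows of the region than falls. Of the 545 windows 39 were higher and 9 lower than in N2, which is 7.16% and 1.65%, against 2.25% and 1.69% of all windows tested and 3.93% in both directions together. The median log2 change was 0.09, and 0.00 over all windows. Scaling by library totals alone moved the median of all windows to -0.29, and then 11 members were higher and 10 lower. Leaving out replicate 1 or 2 of N2 gave 24 and 31 called windows in place of 48, and leaving out replicate 1 or 2 of nrde-3 gave 28 and 29. Beside the windows at 1820 and 1821 kb the falls were small, of under 2-fold.

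Of the 39 nrde-3 rises, 17 were in the block from 1.9 Mb, 9 in that from 1.1 Mb and the rest in 6 other blocks. The blocks from 1.9 and 1.1 Mb held 84 and 41 windows tested. The longest run had 8 windows from 1142017 to 1150016, with log2 changes of 0.81 to 1.54. Within it the 1146-kb window held 23.6, 31.6 and 34.9 CPM in N2 and 74.0, 74.7 and 70.03 CPM in nrde-3 (1.27 ± 0.21, edgeR adjusted p = 0.000246). In set-25;nrde-3 it held 84.4, 78.7 and 66.9 CPM, against 40.8, 34.9 and 34.9 CPM in set-25. In this window nrde-3 thus stood above N2, and set-25;nrde-3 above set-25, in every library. In met-2;nrde-3 its libraries were spread widely, at 73.1, 26.1 and 39.0 CPM, and in met-2 they held 20.6, 21.5 and 24.2 CPM.

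The nrde-3 rises at the right end included windows that fell in other strains. The 1988-kb window, from 1988017 to 1989016, held 37.6, 36.1 and 41.8 CPM in N2 and 107, 128 and 134 CPM in nrde-3 (1.68 ± 0.17, edgeR adjusted p = 9.27e-08). The 4 other mutants lay below N2, at means of 11.5 CPM for met-2, 12.2 for set-25, 13.3 for met-2;nrde-3 and 16.8 for set-25;nrde-3, and each of these falls passed the test. The nrde-3 effect on it differed between backgrounds: the interaction was -1.49 ± 0.29 with met-2 (edgeR adjusted p = 0.000192) and -1.20 ± 0.29 with set-25 (0.0261). The second of these lost its call, with adjusted p up to 0.197, when leaving out any one of the 3 N2 libraries, the 3 nrde-3 libraries except replicate 1, set-25 replicate 1 or 3, or set-25;nrde-3 replicate 1 or 2, and with library totals (0.407). The 1953-kb window was similar in kind: it held 133, 141 and 146 CPM in N2 and 270, 289 and 345 CPM in nrde-3, while set-25;nrde-3 held 122, 125 and 109 CPM and met-2;nrde-3 80.6, 126 and 95.5 CPM.

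**Figure D5:**
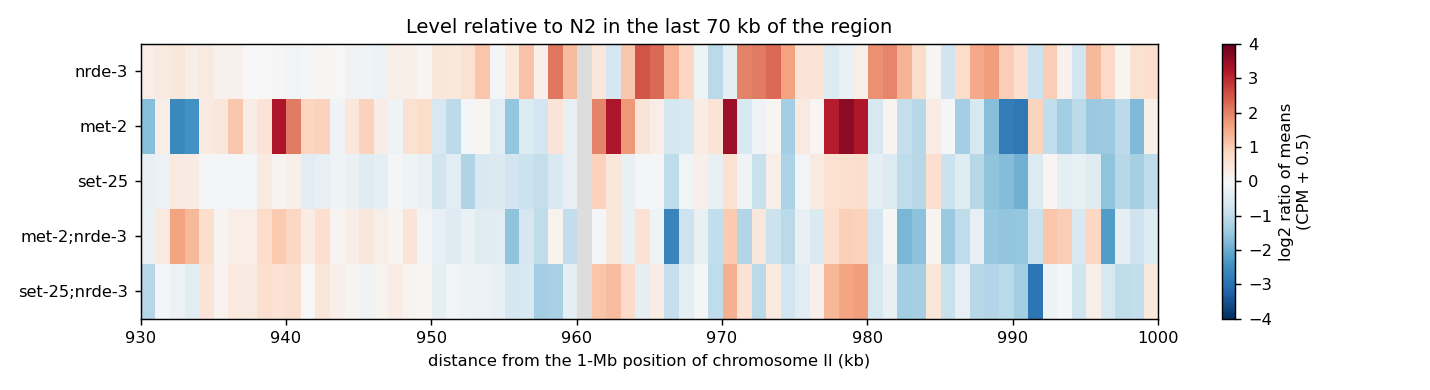
Log2 ratio of the mean level (CPM + 0.5) to N2 in the windows of the last 70 kb of the region, one row per mutant strain, with windows under 30 reads in grey. The met-2 row holds the strong rises at 962, 970 and 978 kb, and the nrde-3 row those around 964 and 988 kb, where the ratios of the other rows are smaller.

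In set-25, 8 windows rose and 26 fell, which is 1.47% and 4.77% of those tested, against 2.06% and 2.09% of all windows and 4.15% together. The median log2 change was -0.09, and scaled by library totals, which moved the median of all windows to -0.58, 1 was higher and 148 lower. The longest run of falls was at 1987 to 1990 kb, where the 1990-kb window went from 49.2, 53.3 and 51.7 CPM in N2 to 11.2, 14.3 and 13.8 CPM (-1.96 ± 0.19, edgeR adjusted p = 3.89e-08). It was lower in met-2, at 7.71, 8.20 and 4.13 CPM, and in both double mutants, and higher in nrde-3, at 97.9, 81.8 and 67.2 CPM.

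Around 1661 to 1665 kb falls and rises lay side by side in set-25. The 1661-kb window held 147, 158 and 147 CPM in N2 and 53.4, 47.9 and 47.5 CPM in set-25 (-1.60 ± 0.12, edgeR adjusted p = 2.61e-10). The 1663-kb window, from 1663017 to 1664016, held 6.14, 5.87 and 4.84 CPM in N2 and 21.6, 21.3 and 18.7 CPM in set-25 (1.87 ± 0.26, edgeR adjusted p = 1.85e-05). Both double mutants showed the same pair of changes: the 1661-kb window stood at 50.9 ± 8.42 CPM with met-2 and at 72.5 ± 1.94 CPM with set-25, and the 1663-kb window at 28.0 ± 6.03 and 19.7 ± 1.71 CPM. In met-2 both windows were lower than in N2, at 31.1 ± 0.908 and 2.92 ± 1.22 CPM, and in nrde-3, at 165 ± 9.95 and 8.32 ± 2.45 CPM, neither passed the test.

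With all 3 libraries of met-2;nrde-3 in the fit, as many windows were higher as lower. Against N2, 29 windows were higher and 29 lower, which is 5.32% each, against 2.63% and 2.03% of all windows and 4.66% together. The median log2 change was -0.02. Without replicate 3 of this strain 90 windows were called in place of 58, with 35 higher and 55 lower. Without replicate 1 of it 31 were higher and 28 lower, and without replicate 2 the counts were 26 and 19. The balance thus depended on the libraries in the fit. With replicate 3 as the only library of this strain the median log2 change was -0.07. The lone library was then assumed to vary like those of the other groups. Among the rises was the 1932-kb window, with 125, 141 and 141 CPM against 39.4, 41.6 and 52.3 CPM in N2 (1.61 ± 0.13, edgeR adjusted p = 1.24e-09), and it was 1.66 with replicate 3 alone. In met-2 this window fell to 6.17, 7.35 and 7.38 CPM.

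Compared with met-2, the double mutant had 244 windows higher and 47 lower, which is 44.8% and 8.62%, against 24.1% and 18.8% of all windows and 42.9% together. The median log2 difference was 0.97. With replicate 3 alone 251 were higher and 44 lower. Scaled by library totals alone, with the median of all windows at 0.42, 300 were higher and 26 lower. The run of 17 windows from 1446 kb was higher throughout, by 2.06 to 3.35 on the log2 scale with a median of 2.44. Some windows that had risen in met-2 went the other way: the 1962-kb window was lower by a log2 difference of -2.79 ± 0.16, the 1307-kb window by -2.71 ± 0.16 and the 1978-kb window by -2.62 ± 0.19. Their levels in the double mutant were 22.6 ± 4.30, 26.0 ± 4.98 and 28.9 ± 2.39 CPM. This comparison and that of met-2 with N2 use the same met-2 libraries. Windows picked for their change in met-2 therefore lean to the opposite sign here.

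The interaction of met-2 and nrde-3 passed the test in 251 windows, 206 above 0 and 45 below, which is 37.8% and 8.26%, against 18.8% and 11.4% of all windows and 30.2% together. Its median was 0.82 in the region. With library totals alone 267 were above 0 and 16 below, and all windows of the table had a median of 0.76. Without replicates 1 and 2 of the double mutant 208 were above 0 and 41 below.

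Against nrde-3, met-2;nrde-3 had 31 windows higher and 58 lower, against 4.03% and 4.14% of all windows and 8.16% together, where the members' shares were 5.69% and 10.6%. With library totals alone, which moved the median of all windows to 0.23, 33 were higher and 25 lower. With replicate 3 alone 19 were higher and 34 lower. This comparison and that of met-2 with N2 share no library. Of the 267 windows lower in met-2, 28 (10.49%) were lower here too, which is 48.3% of the 58, and 19 were higher. That share of the 58 is close to the 49.0% of all tested members that fell in met-2. Of the 47 higher in met-2, 10 (21.3%) were higher here, which is 32.3% of the 31, and 5 were lower. The 10 included those at 1939, 1962, 1970, 1977 and 1978 kb.

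In set-25;nrde-3, 46 windows were higher and 37 lower than in N2, which is 8.44% and 6.79%, against 5.63% and 3.63% of all windows and 9.25% together. With library totals alone, with the median of all windows at -0.77, 7 were higher and 213 lower. Against set-25, 48 were higher and 17 lower, or 8.81% and 3.12%, against 3.77% and 1.91% of all windows and 5.68% together. With library totals alone, with the median of all windows at -0.19, 5 were higher and 13 lower. This count of 65 was 37 to 42 without any one of the set-25 libraries or without replicate 2 or 3 of set-25;nrde-3. Against nrde-3, 26 were higher and 40 lower, or 4.77% and 7.34%, against 3.77% and 3.18% of all windows and 6.94% together, and with library totals alone, with the median of all windows at -0.48, 6 and 112.

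Loss of nrde-3 in N2 and in set-25 was compared over libraries that are not shared. Of the 9 windows that fell in nrde-3 against N2, 5 (55.6%) also fell when set-25;nrde-3 was compared with set-25, which is 29.4% of the 17 there. They were those at 1024, 1447, 1449, 1820 and 1821 kb, and 1 of the 9 was higher. Of the 39 higher ones, 12 (30.8%) were higher in both, 25% of the 48, and 1 was lower. Loss of set-25 in N2 and in nrde-3 had 12 falls in common, 46.2% of 26 and 30% of 40, and 4 rises, at 1076, 1347, 1663 and 1665 kb, 50.0% of 8 and 15.4% of 26. In set-25 the rises at 1076, 1347 and 1665 kb lost their calls with library totals (edgeR adjusted p = 0.143, 0.425 and 0.195), and that at 1665 kb also without N2 replicate 1 or 3. Between the lists for loss of set-25 no window went opposite ways.

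Loss of nrde-3 in N2 and in met-2 had 20 rises in common, 51.3% of 39 and 8.20% of 244, with 4 opposite. Of all tested members 44.8% were higher in met-2;nrde-3 against met-2, which is not far from that share of the 39. Of the 9 falls, 1 was shared, at 1962 kb, whose fall in nrde-3 lost its call without any one of the N2 or nrde-3 libraries, and 8 were higher in met-2;nrde-3 than in met-2.

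The interaction of set-25 and nrde-3 passed in 10 windows, 7 above 0 and 3 below, or 1.28% and 0.550%, against 0.885% and 0.447% of all windows and 1.33% together. With library totals alone 1 was called. Leaving out a single library gave 5 without N2 replicate 3 or set-25 replicate 1, and 6 without set-25 replicate 3 or set-25;nrde-3 replicate 2.

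The spread of reads over the bins of a window was described in N2. Among the 484 tested windows with at least 30 reads in N2, the most abundant 20-bp bin held a median of 20.5% of the reads, with a range of 4.48% to 97.5%. In 21 of them it held over 50%. The median log2 change in met-2 was -2.23 in the 31 windows whose top bin held up to 10%, -1.28 in the 274 with 10% to 25%, -0.92 in the 158 with 25% to 50% and -0.82 in the 21 above. Median N2 levels of these classes also differed, at 25.5, 8.23, 8.62 and 6.20 CPM in that order. The part of level in the differences was not tested. Windows and classes were both chosen by N2 reads, which also enter the change. The filter thus left out windows low in N2, so these medians do not stand for all members. The position of reads was compared with N2 in windows with at least 30 reads in both. The top bin was the same in 54.0% of 313 windows in met-2 and in 66.0% of 385 in set-25;nrde-3, the lowest and the highest strain. Between replicate 1 of N2 and its other replicates it was the same in 60.4% of 265 windows. Each strain was compared as a pool of its 3 libraries, so this value within N2 rests on fewer reads and another set of windows. It is therefore not a like measure. The median overlap of the bin profiles with N2 was 69.4% to 75.7%, against 75% within N2, with the same limit.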

How the data were processed

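Per the labels, TAP-treated small RNA went into QiaSeq miRNA libraries and was read single-end for 50 bases on a HiSeq. The authors removed adapters and merged identical reads (FASTX-Toolkit) before alignment to WS220 by QuasR, per the design text. The build is ce10, per the submitters' processing notes. Tool versions and the treatment of reads with several matches are not given in the sources used here. The deposited values are counts, whole numbers of reads per 20-bp bin. The design text names a scaling to total reads and a selection by read length, neither of which is visible in the values. Totals refer to chromosome I and to chromosome II up to 5.9 Mb.

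Bins were summed by their start to 1-kb windows of the whole table. All 18 libraries were fitted in one edgeR 4.0.16 quasi-likelihood model (R 4.3.3, limma 3.58.1), with a coefficient per strain, filterByExpr with a minimum count of 10, TMM and Benjamini-Hochberg adjustment over 10730 windows at 0.05. The same fit was tested on simulated data. P-values were not adjusted across the 11 comparisons. Windows named were the 10 most abundant in N2, the 6 largest rises and falls against N2, 3 in other comparisons, and the longest runs. Rises and falls were taken where the highest strain mean lay above the median level. Outside the interactions the libraries also did not overlap. Windows given as shared between comparisons were named after their values were seen. The members, lists and rules were chosen with earlier results of these data known. Alternatives were other scalings (RLE, library totals), DESeq2 1.42.0, no filter or a minimum count of 100, only the groups compared, a replicate block, windows shifted by 500 bp, libraries left out, and the last 13 kb of chromosome I left out.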

Additional observations from a re-analysis of the deposited data

Results flagged for a closer look

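The effect of losing nrde-3 differed between N2 and met-2, by the interaction tested with edgeR, in 206 windows with a value above 0 and 45 below. This is 46.1% of the members tested, against 30.2% of all windows in either direction. The largest values were taken among windows whose highest strain mean lay above the median level of all windows tested. Above 0 these were 5.28 on the log2 scale in the 1821-kb window, 4.89 in the 1792-kb window and 4.84 in the 1364-kb window. The values at 1792 and 1364 kb rest on few reads in met-2. The largest below 0 were -3.78 in the 1273-kb window, -3.70 in the 1966-kb window and -2.68 in the 1307-kb window. In the 1273-kb window the means were 2.14 CPM for N2, 7.29 for nrde-3, 16.6 for met-2 and 4.12 for the double mutant. In the 1966-kb window they were 7.75, 21.0, 4.51 and 0.813 CPM in that order. Only in met-2 did the 1273-kb window pass the median level, and only in nrde-3 the 1966-kb window. The value at 1966 kb rests on few reads in the double mutant. These 6 calls held without replicates 1 and 2 of met-2;nrde-3.

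Between N2 and set-25 the interaction with nrde-3 was called in 7 windows above 0 and 3 below. This is 1.83% of the members tested, near the 1.33% of all windows. The values above 0 with the largest size were 1.52 in the 1962-kb window, 1.32 in the 1618-kb window and 1.26 in the 1978-kb window. Those below 0 were -1.20 in the 1988-kb window, -1.10 in the 1932-kb window and -0.75 in the 1953-kb window. The 1932-kb window stood at 44.4 CPM for N2, 61.4 for nrde-3, 58.8 for set-25 and 37.9 for the double mutant. The calls at 1953, 1978 and 1988 kb each ended without at least 1 of the N2 libraries, with adjusted p of 0.0526 to 0.168. With library totals in place of TMM 5 of these 6 calls ended, with adjusted p of 0.0504 to 0.675, and that at 1962 kb held.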

How the results depend on the processing

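No named window changed direction in any alternative run that held it. The run with shifted windows held none of them, and those that failed a run's filter dropped out. Most named windows were chosen for large called changes, so a kept direction was likely. Of 834 values of named windows under alternatives other than leaving out 1 library, 809 kept direction and call and 25 lost the call, and of 648 with 1 library left out 595 and 53. Counts of called members moved by over 1.5 times as follows, and the cause was not tested. With library totals in place of TMM they were 21 for nrde-3 against N2, 149 for set-25, 22 for met-2;nrde-3 and 220 for set-25;nrde-3. They were also 18 for set-25;nrde-3 against set-25, 58 and 118 for the double mutants with met-2 and with set-25 against nrde-3, and 1 for the interaction with set-25. A minimum count of 100, by which fewer windows were tested, gave 144 for met-2, 134 for met-2;nrde-3 against met-2, and 128 and 17 for the interactions with met-2 and set-25. Without replicates 1 and 2 of met-2;nrde-3 the counts were 53 for set-25, 25 for that double mutant, 53 for it against nrde-3 and 23 for the set-25 interaction. With only the groups compared in the fit they were 76, 26, 45 and 23 in the same order. DESeq2 gave 17 for the set-25 interaction. With each library left out in turn the ranges were 24 to 43 for nrde-3, 41 to 90 for met-2;nrde-3, 37 to 60 for set-25;nrde-3 against set-25 and 5 to 12 for the set-25 interaction. The read shares without the end of chromosome I were 6.63% for N2, 2.78% for met-2, 6.15% for set-25, 5.78% for nrde-3, and 6.39% and 5.52% for the double mutants with met-2 and with set-25. With a minimum of 100 reads a window the median change in met-2 was -0.98. RLE size factors, no filter, shifted windows and the fit without the end of chromosome I moved no count by over 1.5 times.

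Replicate numbers did not pair the libraries: deviations of libraries with the same number had a mean correlation of -0.00648 over 45 pairs, and of others 0.00329 over 90. With the replicate block the counts against N2 were 45 for nrde-3, 313 for met-2, 33 for set-25, 53 for met-2;nrde-3 and 78 for set-25;nrde-3. In the order of the report's other comparisons of strains, the block gave 286 and 59 against the single mutants met-2 and set-25, 85 and 65 against nrde-3, and 242 and 10 for the interactions. The block ended the calls at 1395 kb in met-2;nrde-3 (edgeR adjusted p = 0.0717) and at 1953 kb in the set-25 interaction (0.0515). The filter on low counts left 203 of the 748 windows out of the tests, and without it all 748 were tested.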
